A study of Homo sapiens with 12 samples.

Results

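The MCM helicase is the ring of MCM2 to MCM7 that opens DNA at replication origins. In G1 the origin recognition complex, CDC6 and CDT1 place the ring on DNA, a step called licensing, and in S phase the GINS complex, CDC45 and MCM10 turn it into an active helicase. Genes of this machinery are known targets of the E2F transcription factors in many cell types, and their RNA is a common sign of dividing cells. The 10 genes described here are MCM2, MCM3, MCM4, MCM5, MCM6, MCM7, CDC6, CDT1, MCM10 and GINS2. They were chosen by name, and all of their probes on an Illumina bead array were taken, which gave 15 of 47311 probes with values and 10 of 20044 named genes.

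RNA was measured in papillary thyroid cancer cell lines, on 2 arrays for each of 6 groups. The groups were TPC1 cells with Y15 and TPC1 cells left untreated, BCPAP cells with Y15 and BCPAP cells left untreated, and K1 cells with Y15 and K1 cells left untreated. Y15 is a small molecule inhibitor of focal adhesion kinase, and per the labels it was given at 10 µM for 24 hours. Each group is thus 1 established line, and per the study TPC1 carries the RET/PTC1 rearrangement while BCPAP and K1 carry a BRAF mutation. The methods describe separate plates only for another line, so whether the arrays of a group came from separate cultures is unknown, and p-values measure only the spread between these samples, which may be technical.

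Between 16004 and 20376 probes per array were above background, taken as a detection p under 0.05, and arrays averaged signals between 215 (untreated BCPAP, replicate 2) and 393 (untreated K1, replicate 2). The log2 signals of replicates correlated at 0.982 in K1 with Y15 and at 0.993 to 0.998 in the other 5 groups, across probes, which are not independent. In K1 with Y15, 6.33% of the tested probes differed between the replicates by more than 0.5 on the log2 scale, against 0.0324% to 0.681% in the other groups. For this reason the arrays of K1 with Y15 are also given apart. The thyroid factors PAX8 and FOXE1 were above background on all 12 arrays, whereas thyroglobulin (TG) and the iodide transporter SLC5A5 were on none. Of 3 thyroid markers tested, PAX8 and FOXE1 were lower with Y15 in TPC1 (log2 changes -0.80 and -0.64), PAX8 and NKX2-1 in BCPAP (-0.35 and -0.35, but 0.19 and 0.14 with median centring) and PAX8 in K1 (-0.48). The K1 call of PAX8 ended with median centring (-0.75, adjusted p = 0.181 from limma). With neqc, which subtracts background, the calls of PAX8 in BCPAP and K1 ended (adjusted p = 0.0588 and 0.0532). The leukocyte genes PTPRC and CD3E and the endothelial genes VWF and CDH5 were above background on none of the arrays. Of the same list, PECAM1 was above it on 1 untreated TPC1 array. CD79A was above it on 2 TPC1 Y15 arrays and on 1 array each of untreated TPC1, BCPAP with Y15 and K1 with Y15. CD14 was above background on all 12 and was lower with Y15 in K1 (-1.16, adjusted p = 0.000316 from limma). Among 5 epithelial markers tested, KRT7 was the 1 called, lower in TPC1 (-0.49, adjusted p = 0.000812), and CDH1 was above background on no array. Of 5 fibroblast markers tested, 2 were lower with Y15 in TPC1, 1 was lower in BCPAP and 0 in K1. The summed log2 signal of the 6 fibroblast markers on the array, which include the untested COL3A1, was taken over all lines. It ran from 40.8 to 42.4 on Y15 arrays and from 41.4 to 44.1 on untreated arrays. The part of these markers in the results below was not tested. Whole cultures were measured, so fewer cells in S phase and less RNA per cell cannot be told apart.

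The promoters of these genes are shown first, since E2F sites are the feature for which this gene group is known. RefSeq promoters of the GRCh38.p14 build, from 250 bases before to 50 bases after the gene start, were found for 8 of the 10 genes, with 3 windows for MCM7. They were searched on both strands for the E2F words TTTCCCGC, TTTCGCGC, TTTGCCGC and TTTGGCGC and for the CCAAT box. An E2F word was found in 7 of the 8 genes, against 3.31% of 35116 promoters of the same length, and a CCAAT box in 6 of the 8, against 34.6%. The gene without an E2F word in its window was MCM10, which had 2 CCAAT boxes. Matches in MCM2 and CDC6 lay after the start, and 1 in MCM3 ran across it, and these are not printed. The window of MCM6, the gene called in all 3 lines below, held the same 12-base run at 2 places, in which words of the opposite strands overlap by 4 bases. The stretches below are written 5′ to 3′ on the gene's strand, with E2F matches in capitals and positions counted from 0 at the start base. MCM6, MCM3 and MCM7 are subunits of the ring, CDT1 loads it and GINS2 belongs to GINS. A match is a description of the letters and not a measured binding site.
MCM6, chr2:135876498-135876619, minus strand, positions -176 to -55: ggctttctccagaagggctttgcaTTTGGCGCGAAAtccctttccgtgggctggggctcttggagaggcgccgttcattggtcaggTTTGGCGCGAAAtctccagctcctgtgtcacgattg
MCM3, chr6:52284885-52284940, minus strand, positions -198 to -143: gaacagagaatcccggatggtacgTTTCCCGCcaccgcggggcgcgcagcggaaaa
MCM7, chr7:100101398-100101608, minus strand, positions -211 to -1: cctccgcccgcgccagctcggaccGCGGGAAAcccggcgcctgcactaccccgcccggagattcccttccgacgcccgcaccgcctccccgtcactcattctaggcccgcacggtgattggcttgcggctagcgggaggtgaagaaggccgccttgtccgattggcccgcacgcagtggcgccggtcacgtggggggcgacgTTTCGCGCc
CDT1, chr16:88803730-88803785, plus strand, positions -59 to -4: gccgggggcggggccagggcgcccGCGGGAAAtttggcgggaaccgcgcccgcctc
GINS2, chr16:85688955-85689009, minus strand, positions -55 to -1: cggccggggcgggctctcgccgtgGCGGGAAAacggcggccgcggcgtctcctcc

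All 15 probes were among the 21600 tested, which are those that some group had above background on both of its arrays. For each gene the probe with the highest mean signal is given, called probe 1 where it has several. Signals are log2 of the intensity after quantile normalization, and changes are Y15 minus untreated. A gene is called lower or higher at a Benjamini-Hochberg adjusted p under 0.05 from limma, adjusted over all tested probes. In 3 of the genes with several probes, MCM3, MCM4 and MCM7, probes 1 and 2 had changes of the same sign in each line. On probe 2 the changes in TPC1, BCPAP and K1 were -0.28, -0.22 and -0.50 for MCM3 and -0.53, -0.05 and -0.25 for MCM4. They were -0.27, -0.36 and -0.43 for MCM7 and -0.06, 0.02 and 0.02 for MCM10, and none was called. For MCM10 probes 1 and 2 had opposite signs in TPC1 and BCPAP. The third probe of MCM7 was above background on 2 arrays only, both of BCPAP with Y15, and carried no called change.

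In TPC1 cells with Y15, MCM6 and MCM4 fell and no member rose. Both Y15 arrays lay below both untreated arrays for all of MCM2 to MCM7 and for CDT1 and GINS2, 8 of the 10 genes, which 34.9% of all tested probes also did. The called members were 2 of 10 lower and 0 higher, against 13.2% of all probes lower and 12.4% higher. The median log2 change was -0.29 over the 10 members, -0.45 over MCM2 to MCM7 and -0.00 over all tested probes.

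MCM6 (probe ILMN_1798654), a subunit of the ring, had log2 signals of 9.82 and 9.74 in TPC1 with Y15, against 10.64 and 10.61 in untreated TPC1. The pairs of arrays were far apart compared with their own spread, and MCM6 fell by 0.85 on the log2 scale, a 1.80-fold decrease (standard error 0.114, 95% confidence interval -1.09 to -0.60, adjusted p = 0.00025 from limma). MCM4 (probe ILMN_1737205), which pairs with MCM6 and MCM7 in the catalytic core of the ring, had 9.55 and 9.46 with Y15, against 10.24 and 10.34 in untreated cells. It fell by 0.78, a 1.72-fold decrease (standard error 0.243, adjusted p = 0.0343 from limma). On the second probe of MCM4 the change was -0.53 and was not called (adjusted p = 0.0931). The call of MCM4 ended with median centring (-1.21, adjusted p = 0.0705), with neqc, which subtracts background (adjusted p = 0.0526), with no filter on dim probes (adjusted p = 0.0586) and without any 1 of the 8 arrays of TPC1 and BCPAP. MCM7, the third subunit of that core, had 9.83 and 9.74 with Y15, against 10.31 and 10.47 untreated. Its arrays did not overlap either, with a log2 change of -0.60 on probe 1 (adjusted p = 0.0535) and -0.27 on probe 2 (adjusted p = 0.292).

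The other subunits had smaller differences in TPC1. MCM2 had 8.33 and 8.38 with Y15 against 8.58 and 8.72 untreated, a log2 change of -0.29 (adjusted p = 0.157 from limma). MCM3 had 10.91 and 10.88 with Y15 against 11.20 and 11.17 untreated, also -0.29 (adjusted p = 0.228). MCM5 had 8.63 and 8.66 with Y15 against 8.77 and 8.86 untreated, -0.17 (adjusted p = 0.379). In each the Y15 arrays were the lower ones, and none of the 3 was called.

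GINS2, a subunit of the GINS complex, had 8.87 and 9.05 in TPC1 with Y15, against 9.41 and 9.47 untreated, a log2 change of -0.48 (adjusted p = 0.15 from limma). CDT1, the loading factor that geminin inhibits, had 7.81 and 7.68 with Y15 against 8.06 and 8.0 untreated, -0.28 (adjusted p = 0.283). The remaining genes, CDC6 and MCM10, did not separate the treatments. CDC6, an ATPase that loads the ring, had 6.94 and 6.85 with Y15 against 6.91 and 6.88 untreated, and was near background, with 10 of 12 arrays above it. MCM10, which helps activate the helicase, had 7.75 and 7.64 with Y15 against 7.74 and 7.63 untreated, a log2 change of 0.01 with a 95% confidence interval of -0.39 to 0.41.

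**Figure D1:**
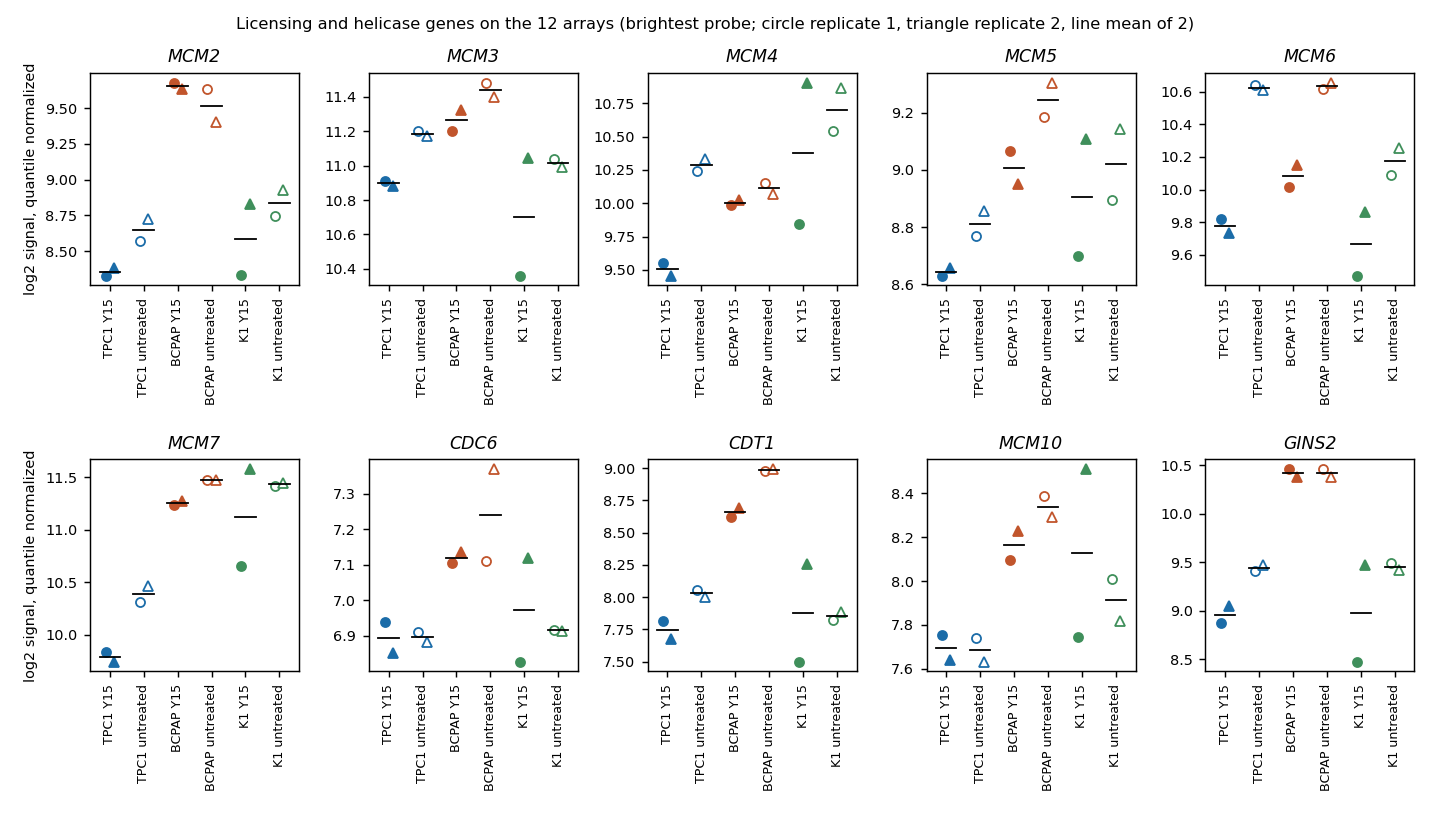
Log2 signal after quantile normalization of the brightest probe of each of the 10 genes on the 12 arrays, for Y15 (filled) and untreated (open) cells of TPC1, BCPAP and K1. Circles are replicate 1, triangles replicate 2 and short lines the mean of 2, axes do not start at 0, and in K1 the Y15 circle lies below the Y15 triangle for every gene, as for GINS2 at 8.48 and 9.47.

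In BCPAP cells with Y15, MCM6 fell and no other member was called, on quantile normalized values. Called members were 1 of 10 lower and 0 higher, against 6.05% of all probes lower and 7.4% higher. Both Y15 arrays lay below both untreated arrays for 7 of the 10 genes, against 25% of all tested probes. The median log2 change was -0.18 over the members and 0.01 over all probes. These directions depend on the scaling in BCPAP. When each array was centred on its median in place of quantile normalization, the median change was 0.33 over the members and 0.18 over all probes, and none of the 10 changes was negative. The untreated BCPAP array with the lowest mean signal enters this comparison, and its part in that shift was not tested.

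MCM6 had log2 signals of 10.01 and 10.15 in BCPAP with Y15, against 10.61 and 10.65 in untreated BCPAP. It fell by 0.55, a 1.47-fold decrease (standard error 0.114, adjusted p = 0.009 from limma), where median centring gave a log2 change of 0.01 (adjusted p = 0.989). The call also ended without BCPAP Y15 replicate 1 (adjusted p = 0.0889) or untreated replicate 2 (adjusted p = 0.0605). CDT1 had 8.62 and 8.69 with Y15 against 8.97 and 8.99 untreated, a log2 change of -0.33 (adjusted p = 0.253), and 0.21 with median centring. MCM5 had 9.07 and 8.95 with Y15 against 9.18 and 9.31 untreated, -0.24 (adjusted p = 0.242), and 0.33 with median centring. MCM7 had 11.23 and 11.27 with Y15 against 11.47 and 11.48 untreated, -0.22 on probe 1 (adjusted p = 0.539) and -0.36 on probe 2 (adjusted p = 0.199), and 0.34 and 0.08 with median centring.

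MCM2 was the member with a positive value in BCPAP, which was not called. It had 9.68 and 9.63 with Y15, against 9.63 and 9.40 untreated, and a log2 change of 0.14 (95% confidence interval -0.17 to 0.44, adjusted p = 0.58 from limma). The Y15 arrays lay above the untreated ones by a narrow margin, as they did for 30.1% of all tested probes. For MCM3 and MCM4 the changes were -0.18 and -0.11 (adjusted p = 0.526 and 0.823), with MCM4 at 9.99 and 10.02 with Y15 against 10.15 and 10.07 untreated. GINS2, which had -0.48 in TPC1, was at 10.46 and 10.38 with Y15 and at 10.46 and 10.38 untreated in BCPAP, a log2 change of -0.00 with a 95% confidence interval of -0.49 to 0.49. CDC6 and MCM10 had changes of -0.12 and -0.18 (adjusted p = 0.502 and 0.589), both above 0 with median centring (0.07 and 0.26).

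**Figure D2:**
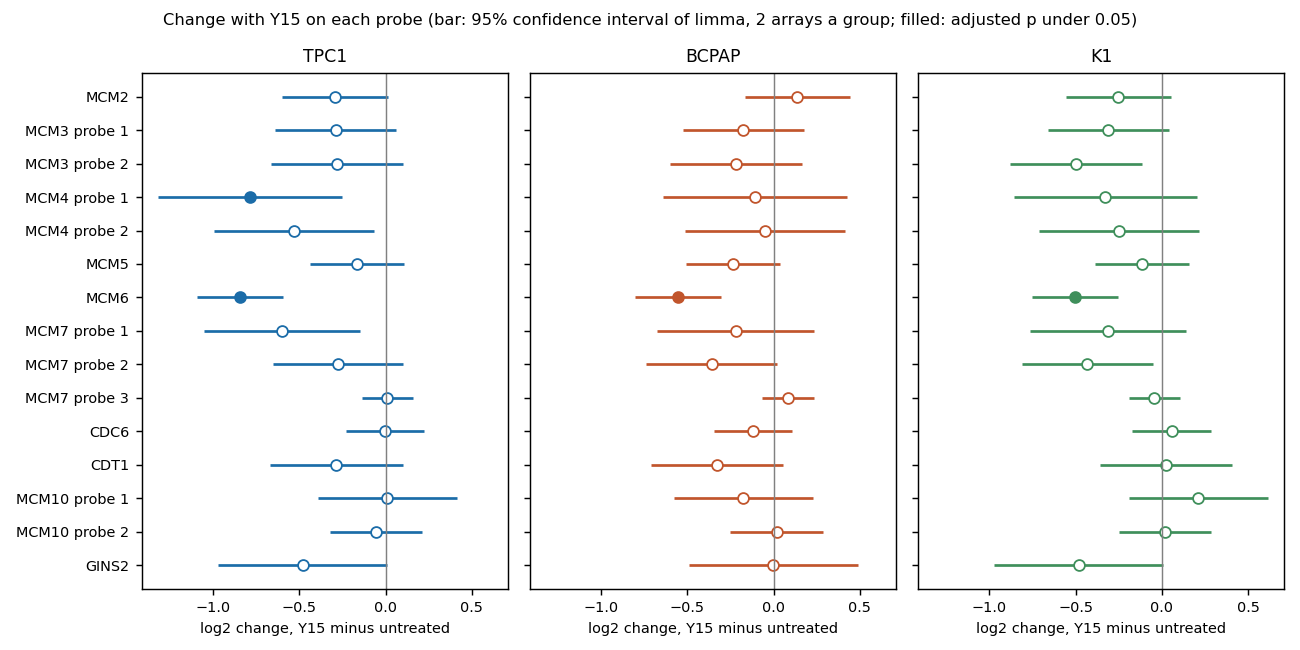
Log2 change, Y15 minus untreated, for each of the 15 probes in TPC1, BCPAP and K1, with 95% confidence intervals from limma (2 arrays a group, quantile normalized). Filled points have an adjusted p under 0.05, which holds for MCM6 in all 3 lines (-0.85, -0.55 and -0.50) and for MCM4 probe 1 in TPC1 (-0.78), and with median centring MCM6 in BCPAP is at 0.01.

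In K1 cells the 2 Y15 arrays gave different pictures of these genes. All 10 members were higher on replicate 2 than on replicate 1, with a gap of 0.29 to 1.06 and a median of 0.72 on the log2 scale, and 6 members had a gap over 0.5. Over all tested probes the median size of this gap was 0.12. Set against the mean of the untreated K1 arrays, all 10 members were lower on Y15 replicate 1, with a median of -0.58, and 2 of 10, MCM2 and MCM6, were lower on Y15 replicate 2, with a median of 0.12. The mean of MCM2 to MCM7 stood at -0.63 on replicate 1 and at 0.03 on replicate 2. In comparison, it stood at -0.48 and -0.52 on the Y15 arrays of TPC1 and at -0.21 and -0.18 on those of BCPAP.

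On the brightest probes MCM6 was the member that lay below both untreated K1 arrays on both Y15 arrays, which 24.1% of all tested probes did. The second probe of MCM3 did so too, with 8.38 and 9.15 with Y15 against 9.26 and 9.27 untreated. Its log2 change was -0.50 and was not called (adjusted p = 0.11 from limma). MCM6 had 9.47 and 9.87 with Y15, against 10.09 and 10.26 untreated, and fell by 0.50, a 1.42-fold decrease (standard error 0.114, adjusted p = 0.0219 from limma). That standard error pools the spread of all 6 groups and does not measure the spread within K1. The standard deviation of MCM6 was 0.28 in K1 with Y15 and 0.12 in untreated K1, against 0.06 and 0.02 in TPC1. MCM6 was the 1 called member, against 4.5% of all probes lower and 3.31% higher. The fit of the 4 K1 arrays alone called no member. Without untreated replicate 1 or 2 of K1, or without Y15 replicate 1, this call ended (adjusted p = 0.0691, 0.162 and 0.0789), and it ended with median centring (log2 change -0.75, adjusted p = 0.259) and with neqc (-0.56, adjusted p = 0.0802).

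The gap between the K1 replicates was widest for MCM4, with 9.85 on Y15 replicate 1 and 10.90 on Y15 replicate 2, against 10.54 and 10.86 untreated. GINS2 had 8.48 and 9.47 with Y15 against 9.49 and 9.42 untreated, so that replicate 1 lay 0.98 below the untreated mean and replicate 2 lay 0.01 above it. MCM7 had 10.66 and 11.58 with Y15 against 11.42 and 11.44 untreated. In these 3 genes replicate 2 was level with the untreated arrays or above them.

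CDT1 and MCM10 were the members with the highest signal on replicate 2 relative to untreated K1. CDT1 had 7.50 and 8.26 with Y15 against 7.83 and 7.88 untreated, a change of -0.36 on replicate 1 and 0.40 on replicate 2. MCM10 had 7.74 and 8.51 with Y15 against 8.01 and 7.82 untreated, -0.17 and 0.60. For MCM2 the K1 values were 8.34 and 8.83 with Y15 against 8.75 and 8.93 untreated, and for MCM3 10.36 and 11.05 against 11.04 and 10.99. The smallest gaps were those of CDC6, MCM6 and MCM5 (0.29, 0.39 and 0.41), with MCM5 at 8.70 and 9.11 with Y15 against 8.90 and 9.14 untreated, and CDC6 at 6.83 and 7.12 against 6.92 and 6.91.

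Which array is used thus set the count of called members in K1. Without Y15 replicate 2, 8 members were called, all lower, and these were the members other than CDC6 and MCM10 (log2 changes from -0.98 for GINS2 to -0.32 for MCM5), where 11.5% of all probes were called lower. Without Y15 replicate 1, 2 were called, both higher, CDT1 (0.40, adjusted p = 0.0147 from limma) and MCM10 (0.59, adjusted p = 0.00339), where 2.64% of all probes were called higher. In both cases the lone array is assumed to vary like those of the other groups. With either array left out the count also grew in the other lines, to 7 lower in TPC1 and 3 lower in BCPAP, against 16.7% and 10.7% of all probes, since all lines share the estimate of the spread. Without the 4 K1 arrays the counts were again 7 and 3, against 16.2% and 10.1% of all probes lower. The 7 in TPC1 were MCM2, MCM3, MCM4, MCM6, MCM7, CDT1 and GINS2, and the 3 in BCPAP were MCM5, MCM6 and CDT1.

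**Figure D3:**
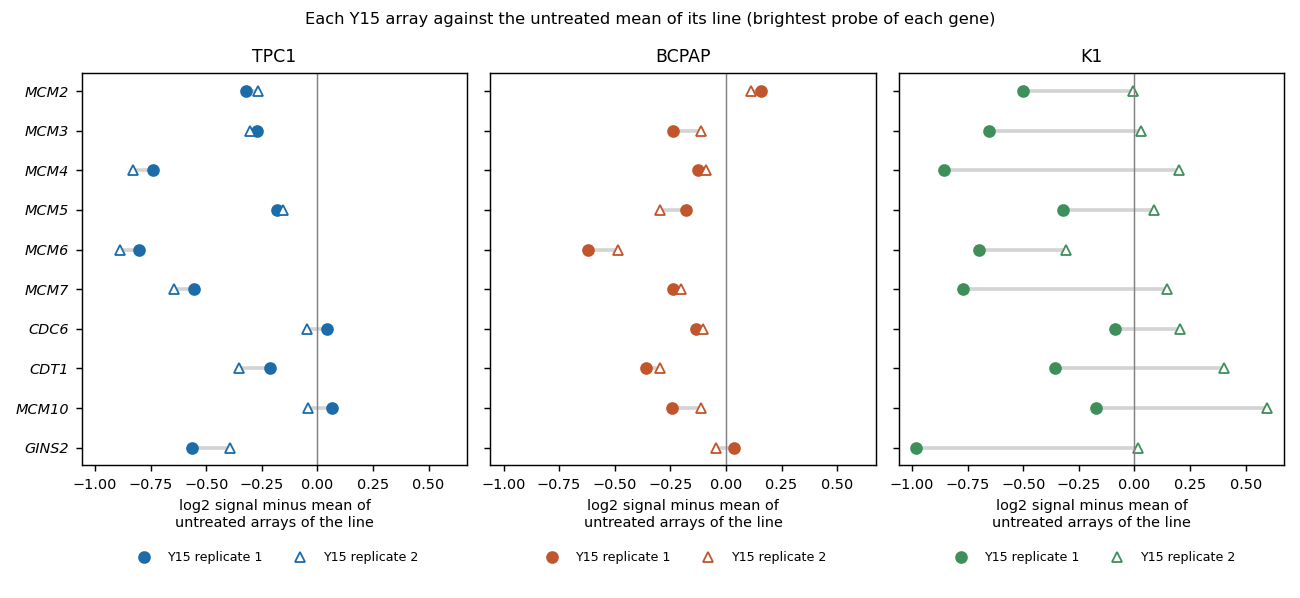
Log2 signal of each Y15 array minus the mean of the 2 untreated arrays of its line, for the brightest probe of each gene in TPC1, BCPAP and K1 (circle replicate 1, triangle replicate 2, grey bar the gap, quantile normalized). The gap reaches 1.06 for MCM4 in K1, all K1 circles lie below 0, and with median centring none of the 10 changes in BCPAP is negative.

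Differences in the Y15 effect from line to line were tested with the F test of limma. It called 0 of the 10 members, against 14.8% of all probes, and with an unadjusted p under 0.05 there were also 0. The lowest adjusted p was 0.253, for MCM2, whose effect in TPC1 minus that in BCPAP was -0.43 (95% confidence interval -0.86 to 0.00, adjusted p = 0.177). For MCM6 the effect in TPC1 minus that in BCPAP was -0.29 (-0.65 to 0.06), and the effect in BCPAP minus that in K1 was -0.05 (-0.40 to 0.30). For GINS2 the difference between TPC1 and BCPAP was -0.48 (-1.17 to 0.22). These intervals are wide compared with the effects, and a difference of that size is not shown to be absent. Without K1 Y15 replicate 1 the F test called 7 members, against 27.9% of all probes, and without replicate 2 it called 5, against 27.6%. Without all K1 arrays the effect in TPC1 minus that in BCPAP was called for 4 members, all more negative in TPC1 (MCM2 -0.42, MCM4 -0.68, MCM7 -0.38 and GINS2 -0.47, adjusted p from 0.000551 to 0.0262), against 21.5% of all probes called in either direction.

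The untreated lines differed in the level of these genes, and for K1 line and culture medium cannot be told apart. On quantile normalized values 7 of the 10 members were lower in TPC1 than in BCPAP, against 22.7% of all probes. These were MCM2, MCM5, MCM7, CDC6, CDT1, MCM10 and GINS2. The second probe of MCM10 was not called (log2 difference -0.27, adjusted p = 0.0934 from limma). MCM7 was 1.08 lower on the log2 scale in TPC1 (10.31 and 10.47, against 11.47 and 11.48 in BCPAP, adjusted p = 0.00107 from limma), and its second probe was 0.95 lower. CDT1 was 0.95 lower, GINS2 0.98 lower and MCM2 0.87 lower (adjusted p = 0.000823, 0.00353 and 0.000311). All 7 calls ended with median centring, where the log2 differences were -0.41 for MCM7, -0.18 for CDT1, -0.22 for GINS2 and -0.09 for MCM2. MCM6 had nearly the same signal in both lines, with a difference of -0.01 and a 95% confidence interval of -0.26 to 0.24.

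TPC1 and K1 differed in 2 members, 1 lower in TPC1, against 15.3% of all probes, and 1 higher, against 16.2%. MCM7 was lower in TPC1 by a log2 difference of -1.04 (adjusted p = 0.00221 from limma), and MCM6 was higher in TPC1 by 0.45 (10.64 and 10.61, against 10.09 and 10.26 in K1, adjusted p = 0.00965). BCPAP was above K1 in 5 members, against 20.6% of all probes. They were CDT1 (difference 1.13, adjusted p = 0.000298), GINS2 (0.96, adjusted p = 0.00457), MCM2 (0.68, adjusted p = 0.00205), MCM6 (0.46, adjusted p = 0.00673) and CDC6 (0.32, adjusted p = 0.0262). Of the 6 group means, that of untreated BCPAP was the highest for 8 members, the exceptions being MCM2, highest in BCPAP with Y15, and MCM4, highest in untreated K1. With median centring the differences that were called and changed sign were those of MCM5 between TPC1 and BCPAP (0.37) and of MCM2 and MCM6 between BCPAP and K1 (-0.07 and -0.28), and 1 member was called in all, MCM4, lower in BCPAP than in K1 (-1.38, adjusted p = 0.0255). In quantile normalized values MCM4 had 10.15 and 10.07 in BCPAP, against 10.54 and 10.86 in K1 (difference -0.59, adjusted p = 0.073).

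The members moved together over the arrays to different degrees. After the mean of each line was taken away, the signal of each gene was compared with the mean of the other MCM2 to MCM7 subunits over the 12 arrays, which share their lines and treatments. Pearson's r was 0.98 for MCM7, 0.96 for MCM4, 0.92 for MCM3 and 0.91 for GINS2. It was between 0.78 and 0.83 for MCM2, MCM5, MCM6 and CDT1, and 0.41 for both CDC6 and MCM10. Without K1 Y15 replicate 1 it was 0.95 for MCM7, 0.93 for MCM4, 0.88 for MCM3, 0.85 for MCM6 and 0.84 for GINS2, between 0.56 and 0.71 for MCM2, MCM5 and CDT1, 0.15 for CDC6 and 0.086 for MCM10. The order of these values was not tested.

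Among 8270 genes above background on all 12 arrays, those most like the mean of MCM2 to MCM7 in this measure were CDCA2, TK1, CCNA2, TPX2, HJURP, CTNNAL1, DCPH1, FBXO5, CEP55 and NCAPG, with r between 0.977 and 0.991. The median r over all compared genes was -0.08. CCNA2 encodes cyclin A2, TK1 thymidine kinase 1, TPX2 a spindle assembly factor and HJURP the chaperone of the centromeric histone. FBXO5 encodes an inhibitor of the anaphase-promoting complex and NCAPG a condensin subunit. With Y15, CCNA2 had log2 changes of -1.30, -0.60 and -0.92 in TPC1, BCPAP and K1, and -1.68 and -0.16 on the K1 Y15 replicates 1 and 2. CDCA2 had -0.59, -0.27 and -0.36, with -0.80 and 0.07 on the K1 replicates. Neither CCNA2 nor CDCA2 was called in BCPAP or K1, and with median centring their BCPAP changes were -0.03 and -0.07. These values are a description, since the genes were chosen on the same arrays. Since r includes the K1 arrays, it was also computed without K1 Y15 replicate 1, and was 0.952 to 0.982.

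Other lists of the replication machinery, chosen with earlier results of these data known, are given by counts. Of 7 tested genes of the origin recognition complex, which marks origins, 1 was called higher in each line and 0 were lower, with median log2 changes of 0.02, 0.09 and 0.07 in TPC1, BCPAP and K1, and of -0.25, 0.51 and -0.01 with median centring. ORC5 was higher in TPC1 (0.47, adjusted p = 0.00791 from limma) and ORC3 in BCPAP and K1 (0.28 and 0.27, adjusted p = 0.0267 and 0.0491). With median centring the calls of ORC5 in TPC1 (0.04, adjusted p = 0.939) and of ORC3 in K1 (0.05, adjusted p = 0.956) ended, and with neqc both calls of ORC3 ended (adjusted p = 0.114 and 0.149). ORC4 and LRWD1 were not called in any line. Of 7 licensing control genes, DDB1, an adaptor of the CUL4 ubiquitin ligase that targets CDT1, fell by 0.29 in TPC1 (adjusted p = 0.0249). CUL4A, its scaffold, was called higher in K1 (0.30, adjusted p = 0.0306), as was FBXO31 in BCPAP (0.37, adjusted p = 0.0357), and SKP2 was called in no line. With median centring the calls of DDB1 (adjusted p = 0.0724) and CUL4A (0.08, adjusted p = 0.916) ended, and with neqc those of DDB1, CUL4A and FBXO31 (adjusted p = 0.119, 0.131 and 0.0843).

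Of 9 tested partners in helicase activation, 0 were called in any line. CDC7, the kinase that phosphorylates the ring, had log2 changes of -0.31, -0.51 and -0.22 (adjusted p = 0.237, 0.0843 and 0.539 from limma), and TICRR, TOPBP1 and WDHD1 were also not called. Of 2 tested relatives and binding partners of the ring, MCM8 and MCMBP, 0 were called. Among 28 genes of the replication fork, 4 were lower and 3 higher in TPC1 and 0 were called in BCPAP or K1. RPA1, which binds single-stranded DNA, was lower in TPC1 (log2 change -0.47, adjusted p = 0.00855), as was POLA1, the catalytic subunit of polymerase alpha (-0.53, adjusted p = 0.0207). PCNA, the sliding clamp, rose by 0.41 in TPC1 (adjusted p = 0.00422) and RFC1, of its loader, by 0.53 (adjusted p = 0.00104), although with median centring PCNA was at -0.06 and RFC1 at 0.06, and the call of POLA1 ended with median centring and with neqc (adjusted p = 0.0581 and 0.0603). Over these 5 lists, 5 of 53 tested genes were lower and 4 higher in TPC1, against 13.2% and 12.4% of all probes. In BCPAP 0 were lower and 2 higher, against 6.05% and 7.4%, and in K1 0 and 2, against 4.5% and 3.31%.

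The lists of nucleotide supply and mitosis had lower medians than MCM2 to MCM7 in each line on quantile normalized values, which was not tested. Beside the counts that follow, 13.2%, 6.05% and 4.5% of all probes were lower in TPC1, BCPAP and K1. Of 6 tested nucleotide supply genes, 2 were lower in TPC1, DUT (log2 change -0.82, adjusted p = 0.00465 from limma) and TK1 (-0.82, adjusted p = 0.0255), 1 in BCPAP, DUT (-0.79, adjusted p = 0.0127), and 0 in K1. DUT clears dUTP and TK1 phosphorylates thymidine. With median centring the calls of DUT in BCPAP (-0.34, adjusted p = 0.466) and of TK1 (adjusted p = 0.0523) ended. Neither RRM2 nor TYMS was called. The median log2 change of this list was -0.63 in TPC1, -0.34 in BCPAP (0.19 with median centring) and -0.36 in K1. Of 18 mitotic genes, 14 were lower in TPC1, 5 in BCPAP and 0 in K1, and 0 were higher, with medians of -1.31, -0.97 and -0.82. In K1 the median was -1.62 on Y15 replicate 1 and -0.11 on replicate 2. KIF20A, a kinesin of cytokinesis, was lower in TPC1 (log2 change -2.2, adjusted p = 0.00298) and in BCPAP (-2.2, adjusted p = 0.00716). CENPF, a kinetochore protein, was also lower in both lines (-1.73 in TPC1, adjusted p = 0.002, and -1.23 in BCPAP, adjusted p = 0.0259). ASPM, a spindle pole protein, was lower in TPC1 (-1.76, adjusted p = 0.00563), and PLK1, a mitotic kinase, in BCPAP (-1.2, adjusted p = 0.00617). With median centring 12 mitotic genes were lower in TPC1, against 17% of all probes, and 0 in BCPAP, against 0.0602%. The BCPAP median was then -0.47. Without either K1 Y15 array, 17 of the 18 were lower in TPC1 and in BCPAP, and in K1 18 were lower without replicate 2 and 2 without replicate 1.

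**Figure D4:**
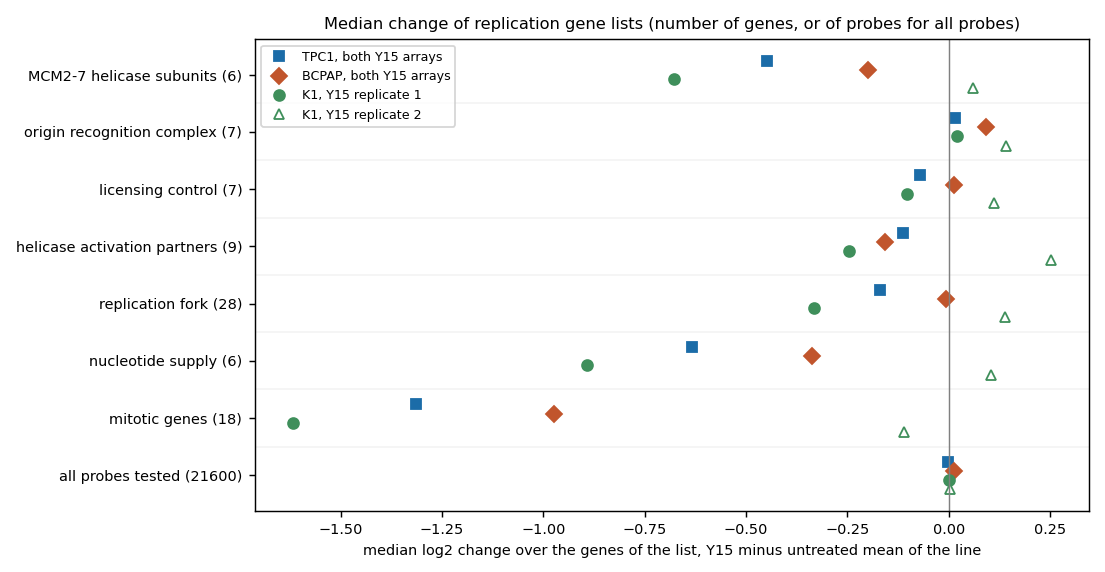
Median log2 change of 7 gene lists and of all tested probes, quantile normalized, for TPC1 and BCPAP (mean of both Y15 arrays) and for each Y15 array of K1, against the untreated mean of the line, with the number of genes in brackets. The mitotic list is lowest, at -1.31 in TPC1 and -1.62 on K1 Y15 replicate 1, and with median centring the BCPAP medians of MCM2 to MCM7, the activation partners, the fork and nucleotide supply are above 0.

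Among 19 tested regulators of E2F activity, TPC1 had 4 lower and 5 higher, beside 13.2% and 12.4% of all probes. BCPAP had 1 lower and 2 higher, beside 6.05% and 7.4%, and K1 had 1 lower and 3 higher, beside 4.5% and 3.31%. As shares of the list, the BCPAP counts were 5.26% and 10.5%. Whether the list differs from all probes was not tested. CDKN1A, the cyclin-dependent kinase inhibitor p21, rose by 2.31 in TPC1 cells, by 0.71 in BCPAP cells and by 1.11 in K1 cells (adjusted p = 1.31e-06, 0.0104 and 0.00158 from limma), and by 1.41 and 0.81 on the K1 Y15 replicates 1 and 2. CDKN1B, another such inhibitor, went the other way, with -0.42 in TPC1 (adjusted p = 0.0129) and -0.50 in K1 (adjusted p = 0.0169), and was not called in BCPAP (-0.22). E2F7, which represses E2F targets, rose by 1.62 in TPC1 (adjusted p = 6.39e-07) and by 0.36 in K1 (adjusted p = 0.0415). E2F6, another repressor, rose by 0.66 in TPC1 (adjusted p = 0.00116). E2F2, an activator, had log2 changes of -0.53 in TPC1 (adjusted p = 0.000581) and -0.91 in BCPAP (adjusted p = 6.77e-05), both called. With median centring CDKN1A was called in TPC1 and BCPAP but not in K1 (adjusted p = 0.152), E2F7 in TPC1 but not in K1 (0.883), E2F6 was not called in TPC1 (0.24, adjusted p = 0.338), and E2F2 was called in TPC1 but not in BCPAP (adjusted p = 0.132). With neqc the call of E2F7 in K1 ended (adjusted p = 0.145).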

How the data were processed

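The authors deposited, for each probe of the bead array, a signal intensity and a detection p-value, and a second table of log2 values. Per the labels, GenomeStudio was used (its version is not given in the sources used here), and the methods give log2 conversion, quantile normalization and limma. The deposited log2 values equalled quantile normalized log2 intensities computed from the first table within 5e-09. Of 47323 probes, 12 had no values. Gene symbols came from the platform annotation, updated through gene IDs of RefSeq (30109 probes with 1 symbol, 8 with several, 17194 with none). The methods name a smaller chip than these probes come from.

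The 21600 probes that some group had above background (detection p under 0.05) on both its arrays were fitted with limma 3.58.1 in R 4.3.3 over the 12 arrays, with 1 mean per group and 6 residual degrees of freedom. The fit was tested on simulated data. The number of arrays limits the precision. A moderated F test compared the Y15 effects between lines. Samples were grouped by the labels. The text names all members with every probe, of each other replication list the 4 genes with the lowest adjusted p in any line, and the 10 genes most like the mean of MCM2 to MCM7. CDKN1B was named beside these. The members and lists were chosen with earlier results of these data known. Alternatives were median centring, neqc, other filters, array weights, the arrays of 1 line, a replicate block and leaving out each array.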

Additional observations from a re-analysis of the deposited data

Results flagged for a closer look

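MCM2 was the member whose Y15 arrays lay on opposite sides of the untreated arrays in different lines. Both Y15 arrays were lower in TPC1 (log2 change -0.29) and both were higher in BCPAP (0.14), while in K1 they were at -0.50 and -0.01 relative to the untreated mean. Such separation is frequent with 2 arrays a group. Of all tested probes, 34.9% had both Y15 arrays below in TPC1 and 30.1% had both above in BCPAP. The share of probes with both patterns is not given. For MCM2 the difference between the lines was tested and did not pass (adjusted p = 0.253, F test of limma over the 3 lines). Without the K1 arrays the effect in TPC1 minus that in BCPAP was -0.42 (adjusted p = 0.0262 from limma), an alternative chosen after seeing the data. With median centring the change of MCM2 in BCPAP was also above 0.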

How the results depend on the processing

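On quantile normalized values 2, 1 and 1 members were called with Y15 in TPC1, BCPAP and K1, all lower. Over all probes 13.2%, 6.05% and 4.5% were lower. The Y15 effect differed between lines for 0 members, against 14.8% of all probes. In at least 1 comparison of untreated lines 8 members differed, a count without a share of all probes beside it. Centring each array on its median gave 1, 0 and 0, against 17%, 0.0602% and 1.06% of all probes lower, and 1 between untreated lines. It moved the median of all probes to -0.16, 0.18 and -0.08, and the share of calls that were higher to 8.28%, 99.6% and 5.79%, against 48.4%, 55.0% and 42.3% with quantile normalization. The call of MCM6 held in TPC1 (-1.25, adjusted p = 0.0154 from limma). Signs turned in TPC1 for MCM10 probe 1 (-0.31), in K1 for CDT1 (-0.12) and MCM10 probe 2 (-0.066), and in BCPAP for MCM3 (0.40 and 0.36), MCM4 (0.48 and 0.42), MCM5 (0.33), MCM6 (0.0077), MCM7 (0.34 and 0.082), CDC6 (0.068), CDT1 (0.21), MCM10 probe 1 (0.26) and GINS2 (0.58). Between untreated TPC1 and BCPAP they turned for MCM3 (0.40), MCM5 (0.37) and MCM6 (0.69), and between untreated BCPAP and K1 for MCM2 (-0.071), MCM3 (-0.30), MCM5 (-0.56), MCM6 (-0.28), MCM7 (-0.67) and MCM10 (-0.19). The cause was not tested. With neqc the counts were 1, 1 and 0, against 12.2%, 4.67% and 2.47% of all probes lower. MCM4 in TPC1 and MCM6 in K1 were no longer called, and in K1 CDT1 (-0.015) and MCM10 probe 2 (-0.015) changed sign. Without the filter on dim probes TPC1 had 1 call, MCM4 no longer being called, with more probes tested. The 4 arrays of each line alone gave 7, 2 and 0 calls, and array weights 7 in TPC1. Without the K1 arrays, chosen after seeing the data, TPC1 had 7 and BCPAP 3, against 16.2% and 10.1% of all probes lower. The share of all probes is not given for the counts between untreated lines, nor for the fits of 1 line, array weights, no filter or the replicate block. For most fits with 1 array left out it is not given either, so such counts are not read as results about the members.

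Leaving out 1 array at a time gave 1 to 7 calls in TPC1, 0 to 3 in BCPAP, 0 to 8 in K1, 0 to 7 differing between lines and 6 to 10 between untreated lines. The call of MCM4 in TPC1 ended without any 1 of the TPC1 or BCPAP arrays, and that of MCM6 in BCPAP without Y15 replicate 1 (adjusted p = 0.0889 from limma) or untreated replicate 2 (0.0605). Changes that took both signs were, in TPC1, those of MCM7 probe 3 (-0.032 to 0.054), MCM10 probe 1 (-0.044 to 0.067), MCM10 probe 2 (-0.13 to 0.013) and CDC6 (-0.047 to 0.042). In BCPAP they were those of MCM10 probe 2 (-0.021 to 0.055), GINS2 (-0.044 to 0.037), MCM4 probe 2 (-0.14 to 0.042) and CDC6 (-0.25 to 0.0091). In K1 they were those of MCM3 probe 1 (-0.66 to 0.031), MCM4 probe 1 (-0.86 to 0.20), MCM4 probe 2 (-0.69 to 0.20), MCM5 (-0.32 to 0.089), MCM7 probe 1 (-0.78 to 0.15), GINS2 (-0.98 to 0.013), CDC6 (-0.088 to 0.20), CDT1 (-0.35 to 0.40), MCM10 probe 1 (-0.17 to 0.59) and MCM10 probe 2 (-0.21 to 0.25). Between untreated lines GINS2 took both signs for TPC1 minus K1 (-0.053 to 0.022) and MCM6 for TPC1 minus BCPAP (-0.029 to 0.00999).

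Replicate numbers were not shown to pair the arrays (correlations of deviations 0.148 in TPC1, -0.160 in BCPAP and 0.002 in K1), and the fit with the replicate number as a block gave 3, 1 and 1 calls, as did crossing the numbers in BCPAP. A block for the chip was not run, since the files name none. CDC6 and the third probe of MCM7 lay near background, which limits their precision.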
